A study of Mus musculus with 6 samples.

Results

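Cytochrome P450 genes were followed in mouse livers injured with DDC, a porphyrinogenic compound, with and without hepatocyte Arid1a. Members were the rows of the deposited gene table whose name is Cyp followed by a family number, a subfamily letter and a gene number, without the 4 bile acid genes Cyp7a1, Cyp7b1, Cyp8b1 and Cyp27a1 and without 5 names ending in -ps. This gave 58 of 14499 genes, in 23 subfamilies of 10 families. The naming rule itself uses no measured value. All 6 libraries were made from total RNA of whole liver of C57Bl/6; 129Sv mice aged 10 weeks with 2 weeks of DDC injury. The Arid1a_KO_DDC group held 3 libraries with a knockout of Arid1a, which encodes a BAF chromatin remodelling subunit that binds DNA, restricted to hepatocytes, and the WT_DDC group held 3 wild-type libraries. The series asks how the liver response to injury depends on Arid1a, and uninjured livers were not analysed here. The labels name no Cre driver and do not tie libraries to separate animals, so p-values reflect library-to-library spread, which may be technical.

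P450 enzymes are heme proteins of the endoplasmic reticulum, and of mitochondria for a few steroid members, that insert an oxygen atom into lipophilic substrates with electrons passed on by a reductase. In liver, families 1 to 3 clear drugs, toxins and steroids, family 4 oxidizes fatty acids and eicosanoids, and other families act on sterols, retinoids and vitamin D. Many are induced through the receptors AhR, CAR, PXR and PPARA, several are confined to hepatocytes near the central vein, and in mice a number differ between the sexes under growth hormone. DDC is itself turned over by some P450 enzymes, which alkylate their own heme, and the product blocks ferrochelatase.

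Values are FPKM, that is, fragments corrected for gene length and for the number mapped, so levels can be set side by side between genes, and differences are knockout minus wild type on the log2(FPKM + 1) scale. A gene was called when its limma p, adjusted by Benjamini-Hochberg over all genes tested, was under 0.05. Arid1a itself was at 6.61, 5.01 and 3.81 FPKM in knockout libraries, against 7.85, 5.48 and 5.98 FPKM in wild-type libraries (log2 difference -0.29, limma adjusted p = 0.678). The groups overlapped, and the gene-level value also covers exons outside a deletion and RNA of cells that keep the gene. Replicate 1 of both genotypes carries the library identifiers L0567 and L0566 and the other libraries L0602 to L0605, and the Y-linked genes Ddx3y, Eif2s3y, Kdm5d and Uty were near 0 in the first pair alone. Sex is not in the labels used here, and it cannot be told apart from library range. Of 11 tested hepatocyte markers limma called 0, with 1 higher at an unadjusted p under 0.05, and their summed level was 52556, 51169 and 64493 FPKM in knockout libraries, against 51212, 47868 and 50030 FPKM in wild-type libraries. In whole liver, fewer cells of a type and less RNA per cell cannot be told apart.

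The summed P450 level was 9896, 13058 and 16094 FPKM in knockout libraries, against 14015, 13507 and 13099 FPKM in wild-type libraries. The lowest and the highest sum of all 6 libraries were both in knockouts, so the groups overlapped. The means were 13016 ± 3099 FPKM in knockout and 13540 ± 459 FPKM in wild type (SD, n = 3 libraries each). As a share of the FPKM of all genes, members held 0.790%, 0.873% and 1.11% in knockout libraries, against 1.69%, 0.793% and 0.921% in wild-type libraries. On that measure wild-type replicate 1 was the highest, so the ranking and the spread within each group depend on scaling. Between 52 and 56 members per library had at least 1 FPKM and 17 to 22 had at least 100 FPKM. The 5 most abundant members held 58.7% to 65.8% of the sum in each library. Cyp3a11 led in knockout replicate 1 and in every wild-type library, and Cyp2a5 led in knockout replicates 2 and 3.

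**Figure D1:**
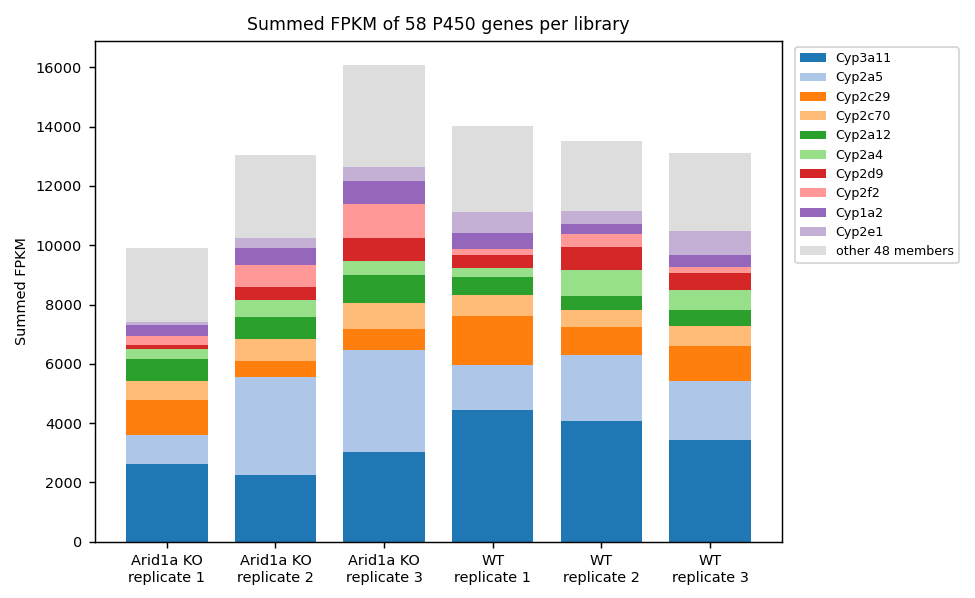
Summed FPKM of the 58 P450 genes in each library, knockout libraries on the left and wild-type libraries on the right, with the 10 most abundant members in colour and the other members in grey. Knockout sums span 9896 to 16094 FPKM and wild-type sums 13099 to 14015 FPKM.

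Family 2 made up 58.8% to 71.5% of the summed level over the 6 libraries. By subfamily, Cyp3a summed to 3009.9, 2688 and 3609 FPKM in knockout libraries, against 4882, 4359 and 3735 FPKM in wild-type libraries, and the groups did not overlap. Cyp4a, which hydroxylates fatty acids, summed to 177, 218 and 331 FPKM in knockout libraries, against 118, 139 and 72.4 FPKM in wild-type libraries, with every knockout library above every wild-type library. Cyp4a12a held 1.72, 123.3 and 205 FPKM of this sum in knockout libraries, against 12.3, 68.7 and 19.0 FPKM in wild-type libraries. Its own groups overlapped, and the separation of the Cyp4a sum depends on it. Among the other subfamilies with more than 1 member the groups overlapped. Cyp2a summed to 2126, 4663 and 4869 FPKM in knockout libraries, against 2442, 3584 and 3207 FPKM in wild-type libraries. Cyp2c summed to 2649, 2002 and 2368 FPKM in knockout libraries, against 3313, 1935 and 2575 FPKM in wild-type libraries. Both groups thus drew most of their P450 transcripts from Cyp2a, Cyp2c and Cyp3a.

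**Figure D2:**
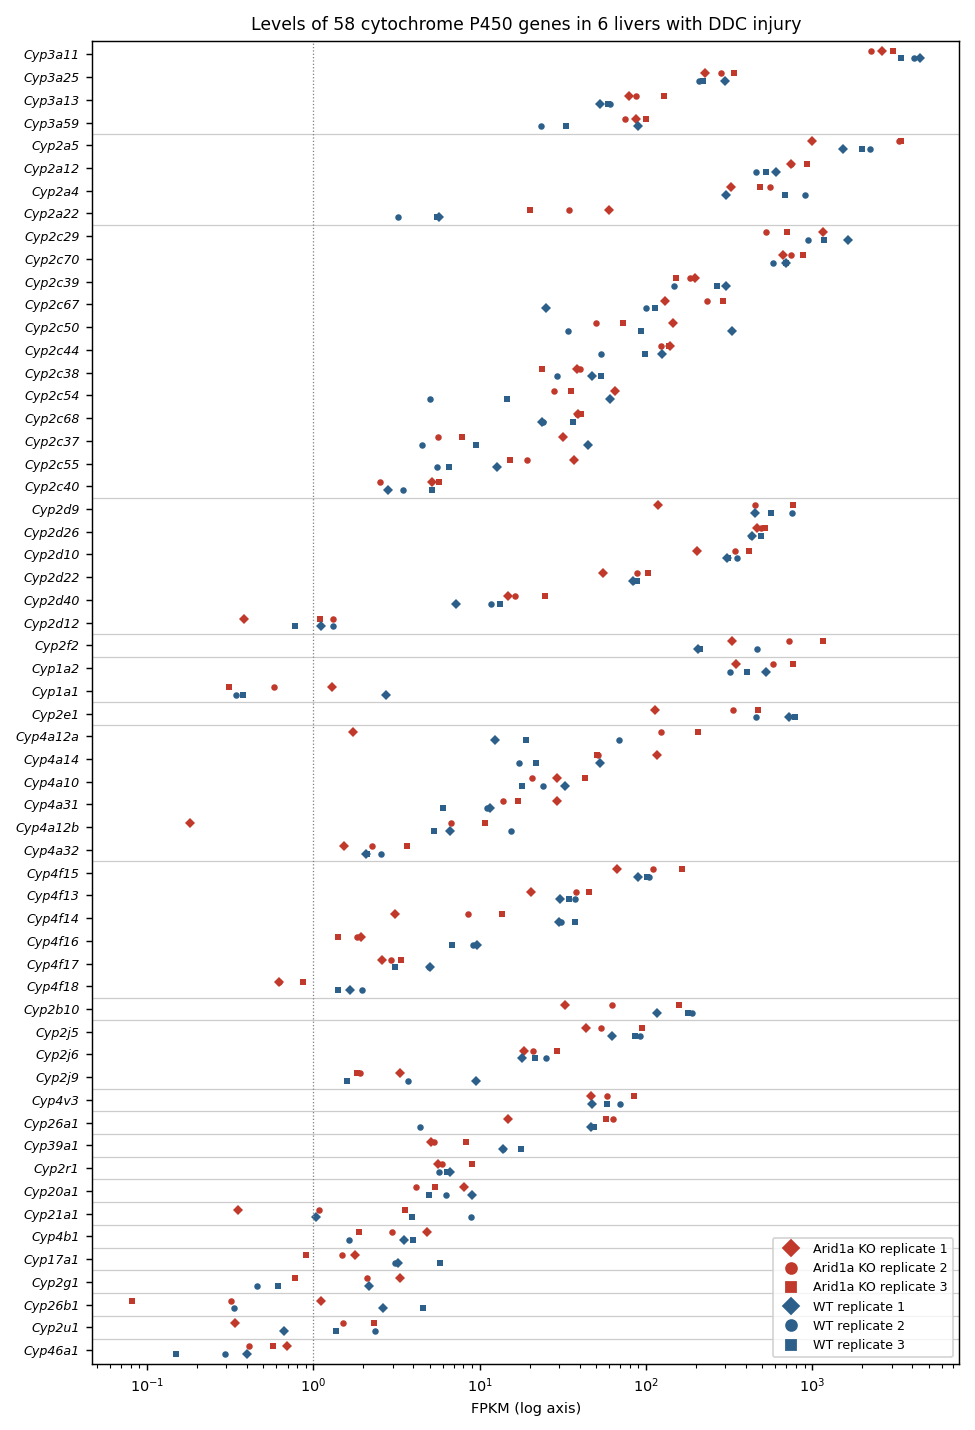
FPKM of all 58 members on a log axis, 1 row per gene, knockout libraries as red points above wild-type libraries as blue points, with the replicate shown by the symbol. Members are grouped by subfamily and separated by grey lines. Cyp4f16, Cyp4f14 and Cyp2a22 have groups that stand clear of each other.

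Of the 56 members with at least 1 FPKM in at least 3 libraries, 1 was called lower in knockout livers, against 0.355% of 11839 genes tested, and 0 were called higher by limma, against 0.135%. At an unadjusted p under 0.05, 10 members were higher, against 4.65% of all genes, and 7 were lower, against 6.5%. Members with a higher level in every knockout library than in any wild-type library numbered 8 (7.09% of all genes), and 6 were lower in the same way (9.56%). Among these 6, Cyp4f18 passed the filter only through the wild-type libraries, where it was higher. A log2 difference of at least 1 in size was seen for 14 members, against 3.6% of all genes. The median difference was 0.06 over members, with 29 positive and 27 negative, and 0.003 over all genes. It became -0.15 without knockout replicate 3 and 0.20 without knockout replicate 1. Taken without sign, the median difference was 0.58 over members and 0.19 over all genes, and the median limma SE was 0.31 for members and 0.19 for all genes. Cyp1a1 and Cyp46a1 did not reach the level for testing.

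**Figure D3:**
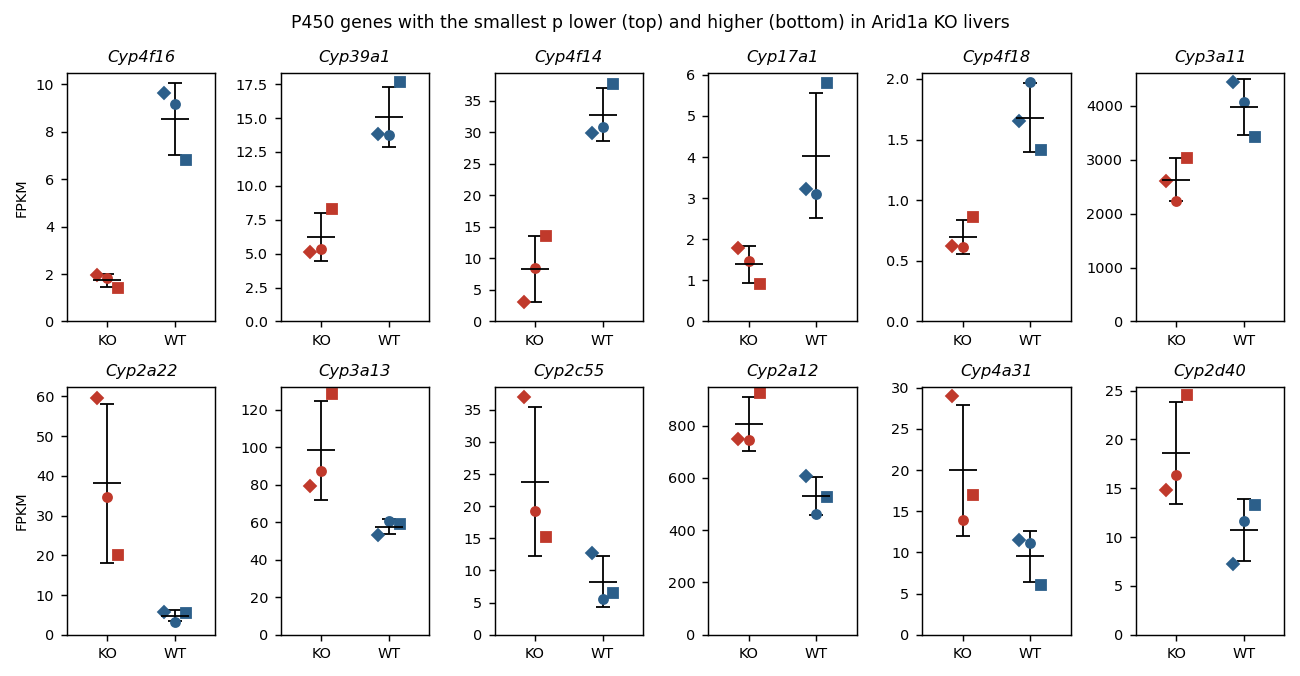
FPKM of the 6 members with the smallest p among those lower (top row) and among those higher (bottom row) in knockout livers, each panel from 0 with knockout libraries on the left. Bars give the mean and SD of 3 libraries, and in each of the 12 panels the groups do not overlap. Picking members by the smallest p of the same comparison itself favours groups apart. Over all genes, groups were apart for 7.09% higher and 9.56% lower in knockout. Cyp4f16 passed the threshold, and Cyp4f18 passed the filter only through its wild-type libraries.

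Within Cyp4f, whose enzymes hydroxylate the ends of fatty acids and leukotrienes, Cyp4f16 fell in knockout livers and close neighbours did not all follow. Cyp4f16 (chr17:32536558-32551798, plus strand, GRCm38, protein coding) was at 1.95, 1.84 and 1.42 FPKM in knockout libraries, against 9.61, 9.17 and 6.82 FPKM in wild-type libraries. All knockout values lay below all wild-type values, in both library ranges. Its difference of -1.79 on the log2 scale passed (SE 0.18, limma adjusted p = 0.0211), with 3 of 3 knockout libraries lower, and the ratio of means was 0.203. The call was lost without knockout replicate 3, wild-type replicate 2 or wild-type replicate 3, at adjusted p-values of 0.104, 0.076 and 0.0642 and differences of -1.71, -1.74 and -1.93. It was also lost with no filter (adjusted p = 0.0582) and within L0602 to L0605 alone (difference -1.77, adjusted p = 0.0544). Of the 50-base windows of its longest transcript 26.5% also occur in transcripts of other genes, mostly Cyp4f37, so reads of the 2 genes may have been shared out between them. Biliary markers mostly had differences of the same sign, with 6 of 7 negative and 2 called lower by limma, and summed to 242, 209 and 420.5 FPKM in knockout libraries, against 130.5, 397 and 308 FPKM in wild-type libraries. Spp1, the marker with the positive difference, held most of that sum, at 229, 195 and 406 FPKM in knockout libraries. Differences were also mostly negative for endothelial (5 of 5), B and plasma cell (5 of 5), T and NK cell (2 of 2 tested, from 5 listed), macrophage (6 of 7) and stellate cell and fibroblast markers (5 of 6). Those of hepatocyte (10 of 11, or 6 with quantile normalization) and erythroid markers (3 of 3) were mostly positive. Apart from the biliary list, limma called 0 genes of any of these lists. B and plasma cell markers summed to 20.3, 7689 and 24.0 FPKM in knockout libraries, against 1532, 4107 and 5521 FPKM in wild-type libraries. Knockout replicate 2 was thus the highest library for them, and the other knockout libraries were the lowest. The part of any of these cells in the Cyp4f16 result was not tested.

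Cyp4f14, a leukotriene hydroxylase expressed near the portal vein, was at 3.10, 8.46 and 13.6 FPKM in knockout libraries, against 29.9, 30.7 and 37.6 FPKM in wild-type libraries. The groups did not overlap, but the knockout libraries differed among themselves more than the wild-type ones, and the difference of -2.02 (SE 0.43) did not pass (limma adjusted p = 0.139). Cyp4f18, a leukotriene hydroxylase of myeloid cells on another chromosome, was at 0.621, 0.618 and 0.862 FPKM in knockout libraries, against 1.66, 1.98 and 1.41 FPKM in wild-type libraries (limma adjusted p = 0.196), with groups apart at a low level. Cyp4f18 reached 1 FPKM only in wild-type libraries, so it passed the filter through the group where it was higher, which favours groups apart. It also overlaps Zfp961 on the opposite strand, and reads of the pair cannot be told apart without strand. Macrophage markers had a negative difference in 6 of 7 tested genes, with 0 called by limma and 2 lower at an unadjusted p under 0.05. They had summed levels of 521, 449 and 351 FPKM in knockout libraries, against 754, 505 and 550.2 FPKM in wild-type libraries; their part in the Cyp4f18 value was not tested. Cyp4f15 was at 67.4, 109.7 and 165 FPKM in knockout libraries, against 89.98, 103.8 and 102 FPKM in wild-type libraries (difference 0.12). Cyp4f13 was at 20.3, 38.1 and 45.8 FPKM in knockout libraries, against 30.3, 37.2 and 34.4 FPKM in wild-type libraries (difference -0.04). For this pair the knockout libraries reached both below and above the wild-type ones. Cyp4f17 was at 2.57 to 3.36 FPKM in knockout libraries, against 3.11 to 5.02 FPKM in wild-type libraries, and the groups overlapped.

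Start regions of 3 neighbouring Cyp4f genes are shown because their levels diverge within a single cluster on chromosome 17, and the 150 bases are from RefSeq on GRCm38.p6. Capitals mark ATTGG, the CCAAT box on the opposite strand.
Cyp4f16 (chr17:32536407-32536556, plus strand): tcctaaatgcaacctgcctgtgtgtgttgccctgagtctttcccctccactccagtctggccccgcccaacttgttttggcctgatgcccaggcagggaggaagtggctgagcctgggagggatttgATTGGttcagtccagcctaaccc
Cyp4f14 (chr17:32917357-32917506, minus strand): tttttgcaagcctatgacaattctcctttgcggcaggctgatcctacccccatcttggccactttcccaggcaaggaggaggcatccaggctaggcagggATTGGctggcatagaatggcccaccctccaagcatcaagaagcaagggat
Cyp4f15 (chr17:32685509-32685658, plus strand): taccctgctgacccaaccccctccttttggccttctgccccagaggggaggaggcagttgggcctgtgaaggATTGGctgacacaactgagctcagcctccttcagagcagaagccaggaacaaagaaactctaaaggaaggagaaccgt
In the 250 bases before the start, searched on both strands, ATTGG was found for 5 of 5 Cyp4f genes in the RefSeq table, for 20 of 43 P450 members with an entry and for 34.5% of 27025 genes. Cyp4f16 and Cyp4f14, which were both lower in knockout libraries, and Cyp4f15, which was not, all hold it. TATAAA was found for 0 of the 5.

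Within Cyp2a, 2 of 4 genes were higher in every knockout library than in any wild-type library (7.09% of all genes), and neither was called. Cyp2a22 (chr7:26931631-26939384, minus strand, GRCm38, protein coding) was at 59.7, 34.7 and 19.995 FPKM in knockout libraries, against 5.70, 3.22 and 5.51 FPKM in wild-type libraries. The lowest knockout library lay well above the highest wild-type one, although the knockout libraries were themselves spread out. Its difference of 2.65 (SE 0.39, ratio of means 7.92) was the highest of the 56 members and missed the threshold (limma adjusted p = 0.0543). It passed with a filter at 5 FPKM, with robust eBayes and with a term for the library range, at adjusted p-values of 0.0458, 0.0466 and 0.0347. Under all other alternatives it did not pass, at limma adjusted p-values between 0.0534 (median-of-ratios scaling) and 0.172 (without knockout replicate 2). Its neighbour Cyp2a12, a steroid hydroxylase, was at 747, 744 and 926 FPKM in knockout libraries, against 606, 461 and 526 FPKM in wild-type libraries (difference 0.60, SE 0.17, limma adjusted p = 0.269). The 2 genes share 20.5% of the 50-base windows of Cyp2a22, whose level was far lower, and Cyp2a22 also overlaps Cyp2a21-ps on the opposite strand, so reads may have been divided between them.

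Cyp2a5, which oxidizes coumarin and nicotine, was at 995, 3325 and 3435 FPKM in knockout libraries, against 1526, 2222 and 1991 FPKM in wild-type libraries. Knockout replicate 1 was the lowest of all 6 libraries and the other 2 knockouts were the highest. Cyp2a4, a testosterone hydroxylase known to be higher in female mice, was at 324, 559 and 488 FPKM in knockout libraries, against 305, 898 and 684 FPKM in wild-type libraries. The groups overlapped for both genes, with differences of 0.25 and -0.36 (limma adjusted p = 0.883 and 0.794). Transcripts of these 2 genes share 40.8% of the windows of Cyp2a5 and 38.0% of those of Cyp2a4, mostly with each other.

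The 4 Cyp2a start regions are shown because they fall into 2 near-copies while the 4 transcripts differed in level and in their knockout values. Each is 150 bases from RefSeq on GRCm38.p6, and capitals mark CAAAGNCC, a core of the kind bound by HNF4A, and then TATAAA, the TATA box.
Cyp2a22 (chr7:26939387-26939536, minus strand): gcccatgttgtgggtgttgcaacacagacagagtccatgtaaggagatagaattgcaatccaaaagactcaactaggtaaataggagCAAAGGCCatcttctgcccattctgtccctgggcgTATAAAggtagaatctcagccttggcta
Cyp2a12 (chr7:27028940-27029089, plus strand): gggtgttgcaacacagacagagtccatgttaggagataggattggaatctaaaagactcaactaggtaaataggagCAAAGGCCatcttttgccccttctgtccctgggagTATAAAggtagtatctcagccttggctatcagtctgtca
Cyp2a4 (chr7:26307042-26307191, plus strand): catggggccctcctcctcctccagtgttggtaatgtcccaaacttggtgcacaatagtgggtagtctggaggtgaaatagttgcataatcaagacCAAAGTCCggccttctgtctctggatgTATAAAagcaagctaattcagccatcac
Cyp2a5 (chr7:26835189-26835338, plus strand): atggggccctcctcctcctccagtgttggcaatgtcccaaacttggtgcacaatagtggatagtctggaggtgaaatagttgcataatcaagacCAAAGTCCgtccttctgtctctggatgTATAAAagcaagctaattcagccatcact
Over the 250 bases upstream, Cyp2a22 and Cyp2a12 were identical at 216 of 239 aligned positions (90.4%) and Cyp2a4 and Cyp2a5 at 245 of 249 (98.4%). TATAAA occurred in 20 of 43 members with an entry and in 12.97% of 27025 genes, and CAAAGNCC in 10 of 43 members and 5.16% of genes, on either strand. The other motifs searched were ATTGAT, an HNF6 core, in 6 of 43 members and 6.97% of genes, and the palindrome TTCNNNGAA of STAT5 type, in 2 of 43 members and 7.18% of genes. A gene counted once for a motif, and ATTGG and ATTGAT, which share their first letters, cannot match at the same position.

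Cyp3a11, the main PXR-induced drug-metabolizing Cyp3a enzyme of mouse liver, was at 2615, 2242 and 3039.9 FPKM in knockout libraries, against 4443, 4067 and 3424 FPKM in wild-type libraries. Every knockout library was lower than every wild-type library, with a difference of -0.60 (SE 0.20) that did not pass (limma adjusted p = 0.33). This gene accounts for most of the Cyp3a sum. Cyp3a13, a PXR target also known from intestine, went the other way, with 79.4, 87.3 and 129 FPKM in knockout libraries, against 53.0, 60.8 and 59.1 FPKM in wild-type libraries. The groups were apart here as well, with the wild-type libraries close together (difference 0.73, SE 0.20, limma adjusted p = 0.248). Cyp3a59 was at 87.7, 74.8 and 100.6 FPKM in knockout libraries, against 89.6, 23.3 and 32.9 FPKM in wild-type libraries. Wild-type replicate 1 matched the knockout level, and the other wild-type libraries lay below it. Cyp3a25 was at 228, 283 and 339.9 FPKM in knockout libraries, against 297, 208 and 219 FPKM in wild-type libraries, with overlap. Cyp3a25 and Cyp3a59 share 26.8% and 28.0% of their windows with other genes, mostly with each other.

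Cyp2c was the largest subfamily, with 12 tested members, of which 7 had positive and 5 negative differences. Of the 12, 3 were higher in every knockout library than in any wild-type library (7.09% of all genes) while 0 were lower in that way (9.56%). Cyp2c55, an arachidonic acid hydroxylase induced through CAR and PXR, was at 37.0, 19.2 and 15.2 FPKM in knockout libraries, against 12.8, 5.51 and 6.51 FPKM in wild-type libraries. In each genotype replicate 1 was the highest. The difference of 1.40 (SE 0.40) had a limma adjusted p of 0.259, and of 0.0282 with a term for the library range. Cyp2c67 was at 131, 233 and 291 FPKM in knockout libraries, against 25.02, 100.5 and 113.4 FPKM in wild-type libraries (difference 1.63, limma adjusted p = 0.378), and here replicate 1 was the lowest of each genotype. Cyp2c68 was at 39.1, 38.7 and 41.0 FPKM in knockout libraries, against 23.8, 23.9 and 36.5 FPKM in wild-type libraries (difference 0.51, limma adjusted p = 0.385). Cyp2c40, which hydroxylates arachidonic acid, was at 2.53 to 5.71 FPKM in knockout libraries and 2.82 to 5.203 FPKM in wild-type libraries. The last 3 genes are close copies, with 52.8%, 43.3% and 72.1% of their windows found in other genes, so the split of reads among them is uncertain.

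Cyp2c29, Cyp2c70, Cyp2c39, Cyp2c38 and Cyp2c44 overlapped between the genotypes. Cyp2c29, an arachidonic acid epoxygenase induced by CAR, was at 1153, 528 and 703 FPKM in knockout libraries, against 1645, 944 and 1179 FPKM in wild-type libraries (difference -0.70, SE 0.34, limma adjusted p = 0.496). Cyp2c70, which makes the muricholic acids of mouse bile, was at 669, 749.6 and 883 FPKM in knockout libraries, against 692, 583 and 696 FPKM in wild-type libraries (difference 0.22). Of these 2 genes, only the second kept within a narrow band over the 6 libraries. Cyp2c39, a retinoic acid hydroxylase, was at 196, 184 and 152 FPKM in knockout libraries, against 301, 148 and 268 FPKM in wild-type libraries. Cyp2c38 was at 38.5, 40.1 and 23.9 FPKM in knockout libraries, against 47.6, 29.4 and 53.5 FPKM in wild-type libraries. Cyp2c44, an epoxygenase, was at 139.6, 123.2 and 138 FPKM in knockout libraries, against 126, 53.8 and 98.9 FPKM in wild-type libraries. In the last case the knockout libraries were close together and the wild-type ones were not.

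Cyp2c37, Cyp2c50 and Cyp2c54 form a trio of pericentral genes induced by CAR. Cyp2c50 was at 145, 50.3 and 73.1 FPKM in knockout libraries, against 331, 33.8 and 93.8 FPKM in wild-type libraries. Cyp2c37 was at 31.8, 5.59 and 7.83 FPKM in knockout libraries, against 44.7, 4.51 and 9.55 FPKM in wild-type libraries. Cyp2c54 was at 65.4, 28.0 and 35.6 FPKM in knockout libraries, against 61.2, 5.04 and 14.7 FPKM in wild-type libraries. For all 3 genes replicate 1 was the highest library of its genotype, and the genotypes overlapped (differences -0.33, -0.16 and 1.19). Windows shared with other genes made up 16.6%, 30.1% and 25.7% of the 3 transcripts.

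Cyp2d members had differences between -0.74 and 0.75, and 1 of 6 had groups apart, with knockout higher (7.09% of all genes). Cyp2d40 was at 14.9, 16.4 and 24.6 FPKM in knockout libraries, against 7.25, 11.6 and 13.3 FPKM in wild-type libraries (SE 0.27, limma adjusted p = 0.37), with the lowest knockout library just above the highest wild-type one. Cyp2d9, a testosterone hydroxylase of male mice, was at 119, 453 and 767 FPKM in knockout libraries, against 450.3, 758 and 564 FPKM in wild-type libraries. Knockout replicate 1 stood below the other 5 libraries. Cyp2d26 was at 463, 495 and 522 FPKM in knockout libraries, against 437, 431 and 489 FPKM in wild-type libraries. Cyp2d10 was at 202 to 418 FPKM in knockout libraries, against 308 to 351 FPKM in wild-type libraries. Cyp2d22 was at 55.1 to 103 FPKM in knockout libraries, against 83.1 to 87.8 FPKM in wild-type libraries. In both of these the knockout range enclosed the wild-type range. Cyp2d12 was near 1 FPKM throughout, at 0.383 to 1.32 FPKM.

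The genes of Cyp4a, fatty acid hydroxylases, include 4 targets of PPARA, the receptor that induces fatty acid oxidation. All 4 had a positive difference, with a median of 0.63 under each scaling tried. Limma called 0 of the 4, with 2 at an unadjusted p under 0.05 and, with a term for the library range, Cyp4a14 called. Cyp4a14 was at 116, 51.6 and 50.7 FPKM in knockout libraries, against 52.7, 17.2 and 22.0 FPKM in wild-type libraries (difference 1.27, SE 0.48, limma adjusted p = 0.395). Replicate 1 was the highest in each genotype, and its wild-type value was close to the level of the other knockout libraries. With a term for the library range the limma adjusted p was 0.0325. Cyp4a31 was at 29.0, 13.9 and 17.03 FPKM in knockout libraries, against 11.6, 11.1 and 5.99 FPKM in wild-type libraries, with groups apart (difference 0.98, SE 0.33, limma adjusted p = 0.341). Cyp4a10 was at 29.1, 20.6 and 43.1 FPKM in knockout libraries, against 32.7, 24.1 and 18.0 FPKM in wild-type libraries. Cyp4a32 was at 1.53, 2.25 and 3.68 FPKM in knockout libraries, against 2.07, 2.57 and 2.09 FPKM in wild-type libraries. The groups overlapped for both, and Cyp4a10, Cyp4a31 and Cyp4a32 share 30.5%, 21.8% and 46.8% of their windows with other genes.

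Cyp4a12a and Cyp4a12b, near-identical arachidonic acid hydroxylases of male mice, spanned a wider fold range over the 6 libraries than any other member. Cyp4a12a was at 1.72, 123.3 and 205 FPKM in knockout libraries, against 12.3, 68.7 and 19.0 FPKM in wild-type libraries. Cyp4a12b was at 0.180, 6.74 and 10.8 FPKM in knockout libraries, against 6.65, 15.5 and 5.33 FPKM in wild-type libraries. Knockout replicate 1 was the lowest library for both, by a wide margin, and the differences of 0.64 (SE 1.61) and -0.96 (SE 0.85) did not pass (limma adjusted p = 0.915 and 0.721). About 48.9% and 49.5% of their windows are shared, so the values of the 2 genes are best read together.

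The remaining drug- and toxin-metabolizing members did not pass. Cyp2e1, the pericentral oxidase of ethanol and acetaminophen, was at 112.95, 333 and 469 FPKM in knockout libraries, against 723, 458 and 793 FPKM in wild-type libraries (difference -1.29, SE 0.52, limma adjusted p = 0.43). The highest knockout library just exceeded the lowest wild-type library. Cyp2f2, a naphthalene oxidase of periportal hepatocytes, was at 331, 727 and 1160.1 FPKM in knockout libraries, against 206, 462 and 212 FPKM in wild-type libraries (difference 1.26, SE 0.51, limma adjusted p = 0.43). Here wild-type replicate 2 fell within the knockout range. Cyp1a2, an AhR target that oxidizes aromatic amines, was at 348, 582 and 761 FPKM in knockout libraries, against 529, 318 and 405 FPKM in wild-type libraries (difference 0.39). Cyp1a1, the most inducible AhR target, was at 1.30, 0.580 and 0.313 FPKM in knockout libraries, against 2.74, 0.345 and 0.379 FPKM in wild-type libraries, and was not tested. Cyp2b10, the standard CAR target, was at 32.8, 62.4 and 158 FPKM in knockout libraries, against 117, 189.6 and 179 FPKM in wild-type libraries (difference -1.19, SE 0.54, limma adjusted p = 0.48). Its knockout values were widely spread, and the highest lay between the wild-type values.

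Members grouped as CAR and PXR targets or as pericentral or periportal genes had differences of both signs. Limma called 0 genes of the CAR and PXR, pericentral and periportal lists, apart from Cyp2c55 when a term for the library range was added. The 10 tested CAR and PXR targets split into 5 positive and 5 negative differences, with a median of 0.04, and at an unadjusted p under 0.05 Cyp2c55 and Cyp3a13 were higher and Cyp3a11 was lower. Of 8 pericentral P450 genes 3 were positive and 5 negative (median -0.24), with 2 lower at an unadjusted p under 0.05. The 2 periportal genes had opposite signs, with Cyp2f2 positive and Cyp4f14 negative. Differences of the receptor genes were smaller than their SE, at -0.22 (SE 0.42) for Nr1i3, which encodes CAR, 0.24 (SE 0.34) for Nr1i2, which encodes PXR, 0.11 (SE 0.17) for Ahr and 0.13 (SE 0.29) for Ppara. Over 19 tested regulators, 14 differences were positive and 5 negative (13 and 6 with quantile normalization), and limma called 0, with 2 higher at an unadjusted p under 0.05. These 2 include Onecut1, which reached 1 FPKM only in knockout libraries.

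Members listed as acting on sterols, steroids, retinoids and vitamin D were expressed at low levels, at no more than 17.7 FPKM, apart from Cyp26a1. Cyp39a1, which hydroxylates an oxysterol on the way to bile acids, was at 5.10, 5.35 and 8.31 FPKM in knockout libraries, against 13.8, 13.8 and 17.7 FPKM in wild-type libraries. All knockout values were below all wild-type values, and the difference of -1.17 (SE 0.21) had a limma adjusted p of 0.0901. Cyp17a1, which makes androgens from progestogens, was at 1.79, 1.48 and 0.904 FPKM in knockout libraries, against 3.22, 3.09 and 5.80 FPKM in wild-type libraries (difference -1.05, SE 0.25, limma adjusted p = 0.187), again with groups apart. Cyp26a1, which clears retinoic acid, was at 14.8, 63.0 and 57.8 FPKM in knockout libraries, against 47.0, 4.39 and 48.5 FPKM in wild-type libraries. Its low libraries were knockout replicate 1 and wild-type replicate 2. Cyp26b1, its paralog, was at 1.11, 0.320 and 0.0807 FPKM in knockout libraries, against 2.62, 0.334 and 4.58 FPKM in wild-type libraries (difference -1.05, SE 0.53). Cyp21a1, the adrenal steroid hydroxylase, was at 0.353, 1.08 and 3.58 FPKM in knockout libraries, against 1.04, 8.92 and 3.90 FPKM in wild-type libraries, and shares 23.7% of its windows with Cyp21a2-ps. Groups overlapped for these last 3 genes. Cyp2r1, a vitamin D hydroxylase, was at 5.61 to 8.98 FPKM in knockout libraries, against 5.66 to 6.66 FPKM in wild-type libraries. Cyp46a1, the brain cholesterol hydroxylase, was at 0.692, 0.411 and 0.576 FPKM in knockout libraries, against 0.401, 0.293 and 0.149 FPKM in wild-type libraries, too low to be tested.

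The other members are 8 genes with overlapping groups and differences between -0.62 and 0.56. Cyp2j5, an arachidonic acid epoxygenase, was at 43.9 to 95.0 FPKM in knockout libraries, against 62.8 to 91.8 FPKM in wild-type libraries. Cyp2j6 was at 18.4 to 29.1 FPKM in knockout libraries, against 18.0 to 25.1 FPKM in wild-type libraries. Cyp2j9 was at 1.82 to 3.31 FPKM in knockout libraries, against 1.597 to 9.46 FPKM in wild-type libraries. In none of these did the knockout libraries lie to one side of the wild-type ones. Cyp4v3, a fatty acid hydroxylase, was at 47.0 to 85.1 FPKM in knockout libraries, against 47.3 to 70.1 FPKM in wild-type libraries. Cyp20a1, whose substrate is not established, was at 4.13 to 8.03 FPKM in knockout libraries, against 4.93 to 8.95 FPKM in wild-type libraries. Lower still were Cyp4b1 (1.63 to 4.83 FPKM over the 6 libraries), Cyp2u1 (0.340 to 2.36 FPKM) and Cyp2g1 (0.460 to 3.32 FPKM), a gene best known from olfactory mucosa.

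**Figure D4:**
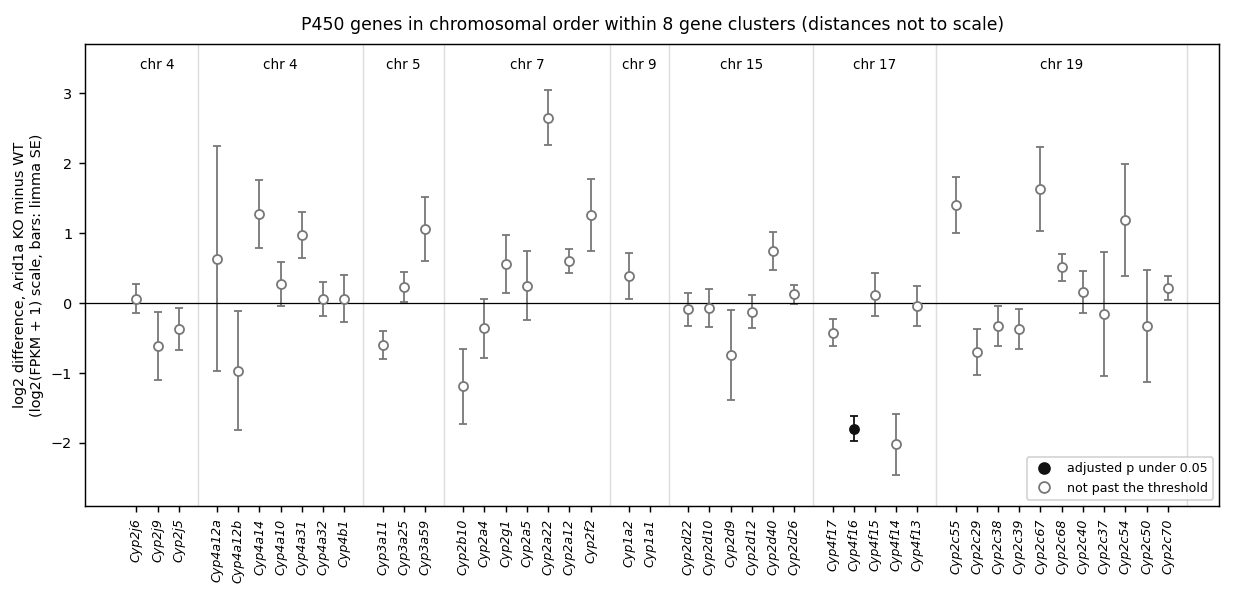
Log2 difference, knockout minus wild type on the log2(FPKM + 1) scale, of the members in 8 gene clusters, in chromosomal order with distances not to scale; bars are limma SE and the filled point passed the threshold. Cyp4f16 at -1.79 stands beside Cyp4f15 at 0.12, and Cyp2a22 at 2.65 stands between Cyp2a5 at 0.25 and Cyp2a12 at 0.60.

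Most members lie in tandem arrays, and neighbours did not all share a direction. With members less than 1 Mb apart joined, 8 clusters held 44 of the 58 genes, and 7 of the 8 held both positive and negative differences. In the Cyp2b, Cyp2a, Cyp2g and Cyp2f cluster of chromosome 7 (chr7:25897620-27133660, GRCm38), differences ran between -1.19 for Cyp2b10 and 2.65 for Cyp2a22. In the Cyp2c cluster (chr19:39007019-40187333), 6 were positive and 5 negative, between -0.70 for Cyp2c29 and 1.63 for Cyp2c67. In the Cyp4f cluster (chr17:32506050-32947402), 1 was positive and 4 negative. Some neighbours share reads, since 20 members share over 20% of their windows with another gene.

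Genes that serve P450 enzymes were measured alongside. Of 12 partners, which carry electrons, make or break heme or act on P450 products, 9 had a positive difference and 3 a negative one, which became 6 and 6 with quantile normalization. Limma called 0 of them, and at an unadjusted p under 0.05 3 were higher and Hmox1 was lower. Fdxr, the reductase of the mitochondrial chain, was at 19.7, 19.4 and 19.1 FPKM in knockout libraries, against 13.8, 13.2 and 11.1 FPKM in wild-type libraries (difference 0.58, limma adjusted p = 0.163). Fdx1, the ferredoxin it reduces, was at 42.3, 65.3 and 67.3 FPKM in knockout libraries, against 37.4, 31.7 and 39.3 FPKM in wild-type libraries (limma adjusted p = 0.314). Ephx1, the microsomal epoxide hydrolase, was at 716, 873 and 986 FPKM in knockout libraries, against 571, 667 and 509 FPKM in wild-type libraries (limma adjusted p = 0.334). All 3 had groups that did not overlap, with the knockout libraries higher. Cyb5a, another partner, had groups apart in the other direction. Its levels were 1339, 1408 and 1552 FPKM in knockout libraries, against 1838, 1620 and 1804 FPKM in wild-type libraries (difference -0.29, limma adjusted p = 0.548). Hmox1, which degrades heme, was at 129, 63.3 and 44.7 FPKM in knockout libraries, against 179, 237 and 98.4 FPKM in wild-type libraries (difference -1.16, limma adjusted p = 0.421), with overlap.

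Members were also compared between the 2 library ranges, along which the Y-linked genes split. In the fit with genotype as a covariate, limma called 0 of 56 members, against 0.0422% of all genes called higher in L0566 and L0567 than in L0602 to L0605 and 0.0845% called lower. At an unadjusted p under 0.05, 10 members were higher in L0566 and L0567 (8.23% of all genes) and 14 lower (13.1%). With quantile normalization these were 15 and 10. Both L0566 and L0567 lay above all other libraries for 6 members (11.3% of all genes) and below them for 13 (17.2%). The filter favours the second kind, since a gene with 1 FPKM or more only in L0566 and L0567, such as Cyp1a1, could not be tested. Differences of at least 1 in size were seen for 15 members, against 3.49% of all genes. Such a difference cannot be assigned to sex, library range or any other property that these 2 libraries share.

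**Figure D5:**
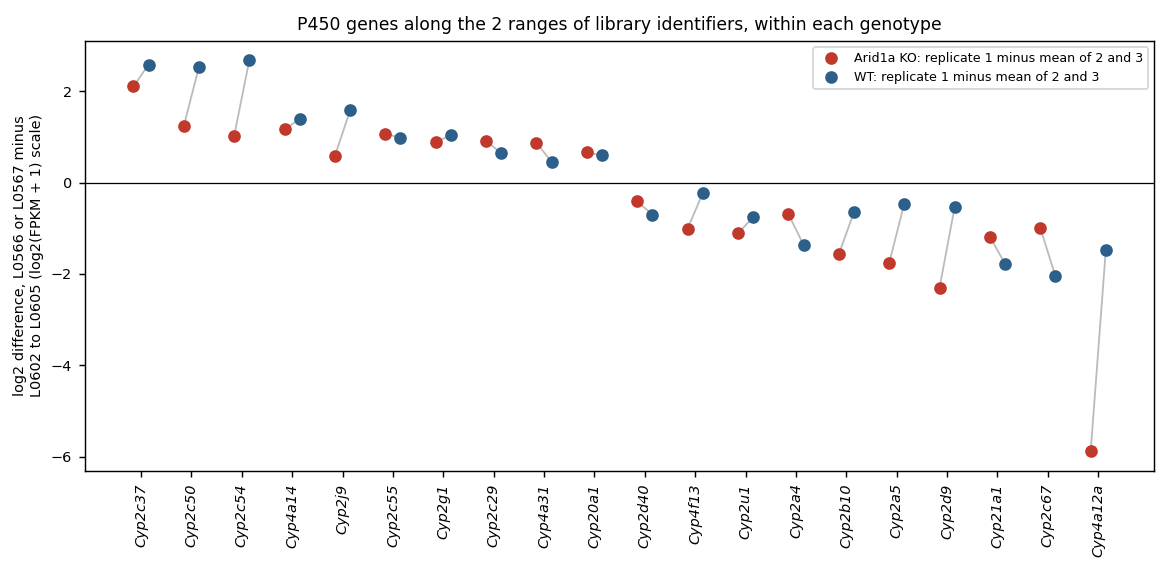
Log2 difference between replicate 1 (L0567 in knockout, L0566 in wild type) and the mean of replicates 2 and 3 (L0602 to L0605), within knockout in red and within wild type in blue, for the 10 members with the smallest p in each direction. Every line joins 2 points of the same sign, which picking members by the smallest p over both genotypes itself favours. Cyp4a12a is at -5.88 in knockout and -1.48 in wild type.

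Of the 10 members higher in L0566 and L0567 at an unadjusted p under 0.05, limma called 0. Cyp4a14 was at 52.7 and 116 FPKM in this pair, against 17.2 to 51.6 FPKM in L0602 to L0605 (difference 1.28, SE 0.14, limma adjusted p = 0.0534). Cyp2c37 was at 31.8 and 44.7 FPKM in the pair, against 4.51 to 9.55 FPKM in the other libraries (difference 2.34, SE 0.30, limma adjusted p = 0.0649). The ranges did not overlap for either gene, though for Cyp4a14 the gap was narrow. Cyp2c50 and Cyp2c54 were likewise apart, with differences of 1.88 and 1.85, in knockout alone 1.24 and 1.03 and in wild type alone 2.53 and 2.68. Differences of the other members among the 10 with the smallest p were 1.02 for Cyp2c55, 0.78 for Cyp2c29, 0.63 for Cyp20a1, 0.96 for Cyp2g1, 1.08 for Cyp2j9 and 0.66 for Cyp4a31, with limma adjusted p of 0.0756 and more.

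Among members lower in L0566 and L0567, Cyp4a12a had the lowest difference, with 1.72 and 12.3 FPKM in this pair, against 19.0 to 205 FPKM in L0602 to L0605 (difference -3.68, SE 1.04, limma adjusted p = 0.148). It was -1.52 for Cyp2c67 (limma adjusted p = 0.0949), -1.03 for Cyp2a4 (0.105) and -0.93 for Cyp2u1 (0.121), which reached 1 FPKM only in L0602 to L0605. Cyp2a5, Cyp2d9, Cyp21a1, Cyp2b10, Cyp4f13 and Cyp2d40 had differences of -1.11, -1.42, -1.48, -1.11, -0.62 and -0.56. All 6 Cyp2d genes had a negative sign, which became 5 of 6 with quantile normalization.

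Set against textbook sex bias, the 4 male-biased P450 genes Cyp4a12a, Cyp4a12b, Cyp2d9 and Cyp2u1 were all lower in L0566 and L0567, with a median of -1.57. Cyp2u1 reached 1 FPKM only in L0602 to L0605, so it passed the filter through the range where it was higher, and its sign adds little. Cyp4a12b was at 0.180 and 6.65 FPKM in L0567 and L0566, against 5.33 to 15.5 FPKM in L0602 to L0605, and overlapped. The 10 tested female-biased P450 genes split into 5 positive and 5 negative (median -0.02), with Cyp4a14 at 1.28 and Cyp2a4, held to be higher in females, at -1.03. A further 7 genes of that list, among them Cyp2b9, Cyp2b13 and Cyp3a41a, have no row in the table used here. Outside the family, 12 of 12 tested male-biased genes, from 18 listed, were negative (median -1.49). Elovl3 and Hsd3b2 among them reached 1 FPKM only in L0602 to L0605, so their sign adds little. Of 17 tested female-biased genes, from 21 listed, 16 were positive (median 1.04), with Sult2a2 called by limma. Limma called 0 P450 genes of these lists, with 4 male-biased ones lower, and 1 female-biased one higher and 2 of them lower, at an unadjusted p under 0.05. Cyp4a14 was called with quantile normalization and with robust eBayes.

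Whether the knockout difference depended on the library range was tested as an interaction, and limma called 0 members (0% of all genes in either direction). The interaction, taken as the difference in L0602 to L0605 minus that in L0566 and L0567, was positive for 41 members and negative for 15, with a median of 0.38, against 0.01 over all genes. At an unadjusted p under 0.05, 12 members were positive (4.58% of all genes) and 1 was negative (4.48%). This fit has 1 library per genotype in the L0566 and L0567 range, and knockout replicate 1 was the library with the lowest summed P450 level. Cyp2e1 had differences of -2.67 in L0566 and L0567 and -0.61 in L0602 to L0605 (interaction 2.06, limma adjusted p = 0.477). Cyp4f16 had -1.85 and -1.77, and Cyp2a22 had 3.18 and 2.38, so both kept their direction in each range.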

How the data were processed

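The file deposited by the authors holds log2 FPKM for 14499 genes in 6 libraries, and each column was matched to a sample by its library identifier. TopHat2 2.0.6, Cufflinks, mm10 and GRCm38 are listed, per the submitters' processing notes, without their order; annotation and strand setting are not stated there. An offset of 0.000977 FPKM in the deposited values was removed before any other step. Depth is unknown, since FPKM are not counts, so no counting intervals are given.

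Values were taken to log2(FPKM + 1), a scale that understates changes of genes with low FPKM. Genes with at least 1 FPKM in at least 3 of 6 libraries, whatever their genotype, were tested with limma 3.58.1 in R 4.3.3 (lmFit, eBayes with trend, two-sided), with Benjamini-Hochberg adjustment over 11839 genes and a threshold of 0.05. Errors are limma SE for log2 differences and SD for FPKM. With 3 libraries per genotype an exact permutation p could not be lower than 0.1. The library range was fitted with genotype as a covariate, and the interaction in a fit of both. The fits were tested on simulated data. Gene lists came from general knowledge of liver biology, and the members and lists were chosen with earlier results of these data known. Genes named with values in all libraries were those past the threshold, the 6 with the smallest p per direction, the 10 most abundant, the 10 with the smallest p per direction between library ranges, and listed sex-biased and receptor targets; other members are given by values or ranges. Positions and shared 50-base windows are from GENCODE M21 on GRCm38. Start regions are from RefSeq on GRCm38.p6, with 43 of 58 members matched by symbol. Only the first start listed for each gene was used. Alternatives were pseudocounts of 0.1 and 5, quantile normalization, median-of-ratios scaling, no filter, a filter at 5 FPKM, robust eBayes, eBayes without trend, a term for the library range, a replicate block, L0602 to L0605 alone, no genotype term, and leaving out each library.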

Additional observations from a re-analysis of the deposited data

Results flagged for a closer look

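For 11 members the knockout difference had opposite signs in the 2 library ranges, with knockout replicates 2 and 3 both to one side of wild-type replicates 2 and 3 and replicate 1 of the knockout on the other side of wild-type replicate 1. The difference between the ranges was tested as the interaction, and none of the 11 passed (limma adjusted p of 0.403 or more). Among genes of drug and toxin metabolism the interaction was 1.30 for Cyp2a5 (limma adjusted p = 0.403), with a knockout difference of -0.62 in L0566 and L0567 and 0.68 in L0602 to L0605. Cyp1a2 had an interaction of 1.49, with differences of -0.61 and 0.89. It was 1.64 for Cyp3a59, 0.92 for Cyp3a25, 0.74 for Cyp2d22 and 0.40 for Cyp2c70. Cyp2a4 was the exception in sign, at -0.67, with 0.09 in L0566 and L0567 and -0.58 in L0602 to L0605. Among fatty acid hydroxylases it was 4.39 for Cyp4a12a, with differences of -2.29 and 2.10, and 0.77 for Cyp4f13 and 0.80 for Cyp4f15. Cyp26a1, which clears retinoic acid, had 3.51 (SE 1.79). The range L0566 and L0567 holds 1 library per genotype, so the signs there rest on single libraries. How many of all genes meet the same rule was not counted. The number of 11 is therefore not a result about P450 genes.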

How the results depend on the processing

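The count of members called higher in knockout livers, 0 as reported, was 1 with a filter at 5 FPKM, 1 with robust eBayes and 3 with the library-range term (Cyp2a22, Cyp2c55 and Cyp4a14); leaving out a library gave 0 in all 6 cases. The count called lower, 1 as reported (Cyp4f16), was 0 with no filter, 0 with the replicate block (adjusted p of Cyp4f16 0.0537), 0 in L0602 to L0605 alone, and 0 to 1 with a library left out. The adjusted p of Cyp4f16 was 0.016 to 0.104 over the alternatives, and its difference -2.23 to -1.002. Between library ranges, 1 member (Cyp4a14) was called higher with quantile normalization and 1 with robust eBayes, and 0 to 0 with a library left out. Of values for single members under alternatives, 526 kept their direction and their side of the threshold, 6 newly passed, 6 no longer passed and 0 reversed. These values cover only the members with the smallest p, 6 per direction for knockout and 10 per direction between library ranges. Picking them from the same data itself favours a kept direction, and the other members were not counted here. The member median was -0.15 to 0.20 with a library left out. Over all genes, calls of 16 higher and 42 lower became 5 and 7 with no filter, 33 and 59 with the library-range term, 0 and 0 with the replicate block, and with a library left out ranged between 0 (without knockout replicate 3) and 30 (without knockout replicate 1) for higher and between 0 (without knockout replicate 3) and 40 (without knockout replicate 2) for lower. Same-numbered libraries had correlated deviations of 0.346, 0.133 and 0.0212, so the numbers were not taken as pairs; knockout replicate 2 correlated better with wild-type replicate 3 than with its own number. With 3 libraries per genotype, an unadjusted p under 0.05 was reached by 10 members with a positive and 7 with a negative difference, and Cyp4f16 alone passed the threshold as reported. No FPKM of 0 occurred among members.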

Other observations

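Cyp51, the lanosterol demethylase of cholesterol synthesis, falls outside the naming rule and was at 38.9, 27.4 and 45.7 FPKM in knockout libraries, against 66.6, 23.3 and 27.8 FPKM in wild-type libraries (log2 difference 0.05, limma adjusted p = 0.973). Among regulators of P450 genes, Onecut1, which encodes HNF6, was at 1.05, 3.01 and 2.62 FPKM in knockout libraries, against 0.419, 0.330 and 0.854 FPKM in wild-type libraries, with groups apart (difference 1.03, SE 0.29, limma adjusted p = 0.259). Onecut1 passed the filter only through its knockout libraries, which favours groups apart. Foxa2 was at 15.6, 13.8 and 15.7 FPKM in knockout libraries, against 8.56, 10.8 and 12.9 FPKM in wild-type libraries (limma adjusted p = 0.39). Por, the reductase that feeds electrons to microsomal P450 enzymes, was at 118, 279.9 and 391.9 FPKM in knockout libraries, against 245, 201 and 243 FPKM in wild-type libraries, and knockout replicate 1, which had the lowest P450 sum, was also the lowest for Por. Alas1, the first enzyme of heme synthesis, was at 155, 308 and 433 FPKM in knockout libraries, against 202, 73.1 and 227 FPKM in wild-type libraries. These genes were chosen after their values were seen.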
